A study of Drosophila melanogaster with 2 samples.

Results

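Peaks at divergent promoters are places where Hr83-GFP was found between or beside a pair of protein-coding genes that start on opposite strands. Of 4797 thresholded peaks, 838 qualified, 17.5% (95% Clopper-Pearson interval 16.4 to 18.6). A peak was kept when the annotated transcription start site (TSS) nearest to its summit belonged to a protein-coding gene within 500 bp, and when a plus-strand and a minus-strand protein-coding TSS of different genes both lay within 500 bp of the summit. The rule used positions only. The 838 peaks lay at 791 gene pairs with 1580 genes, and 43 of them had 3 or more coding genes in reach, of which the pair with the smallest summed distance to the summit was named. The other thresholded peaks comprised 2058 at coding promoters with TSSs in reach of 1 strand only (one-sided promoters below), 190 at promoters of noncoding genes, and 1711 over 500 bp from any TSS.

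The study profiled chromatin occupancy of Hr83 by ChIP-seq in whole Drosophila melanogaster at the wandering stage of the third larval instar. There was 1 group, Hr83-GFP larvae, a transgenic line that stably expresses Hr83 fused at its C-terminus to GFP, with males and females pooled and GFP as the target of the precipitation. Its biological replicates are numbered 3 and 4, and a group without the transgene was not analysed here, so what belongs to Hr83 and what any tagged protein would give at these promoters was not tested. The files gave a position and a signal per peak, which is the authors' own score and is comparable only within a list, and no read counts, so depth is unknown and the intervals cover counting error only.

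Hr83 belongs to the NR2E class of nuclear receptors, DNA-binding transcription factors, and has no known ligand. In the compact fly genome many genes are arranged head to head, so that a short stretch of DNA holds the promoters of both. Such shared promoters are known mostly for housekeeping genes, and they often carry the DNA replication-related element (DRE), bound by Dref, the overlapping core bound by the insulator protein BEAF-32, or Motif 1, bound by M1BP. The GAGA element, bound by Trl, is better known from developmentally regulated promoters.

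Windows were taken from only part of the divergent promoter peaks. The first 6 windows are those of the strongest peaks in that part, without Ciao1-HPS1 (signal 504), which lies outside it. They are followed by the strongest peak of that part with a DRE and the strongest with a GAGA element. CG11180-FAM21 (signal 365) and RpL41-NaCP60E (346) also have a DRE and are stronger than RpL28-eIF1 (336), but their windows are not shown. The windows show the DNA under the summits and where the TSSs and the promoter elements lie in it. Each is 200 bases of the plus strand of dm6 with the summit at base 100, in lower case, and capitals mark matches to DRE, Motif 1, Motif 6, Motif 7, GAGA, E-box or the receptor hexamer AAGTCA on either strand. Tcs5-CHMP2B (FBgn0035590 and FBgn0035589, chr3L:5139398-5139597) has both TSSs just outside the window and no match to these motifs. mRpS23-CenG1A (FBgn0260407 and FBgn0028509, chr2L:13835357-13835556) and Mnat9-CG1792 (FBgn0039859 and FBgn0039860, chr3R:31616079-31616278) have none either. Ripalpha-RpL7 (FBgn0032189 and FBgn0005593, chr2L:10200941-10201140) holds both TSSs, Ripalpha at base 34 and RpL7 at base 64, a Motif 1 from base 49 to 56 on the minus strand and a Motif 7 from base 99 to 106 at the summit. RpS27-Nup37 (FBgn0039300 and FBgn0039301, chr3R:25247406-25247605) has an E-box and the RpS27 TSS at base 109. D19B-CG43293 (FBgn0022699 and FBgn0262985, chr3L:6185010-6185209) has the receptor hexamer from base 120 to 125. RpL28-eIF1 (FBgn0035422 and FBgn0035423, chr3L:3222896-3223095) has a DRE from base 150 to 157. Pop4-nmo (FBgn0035831 and FBgn0011817, chr3L:7978872-7979071) has a GAGA element at bases 182 to 188, far from its summit, besides Motif 6 and Motif 7 near its other end.
Tcs5-CHMP2B: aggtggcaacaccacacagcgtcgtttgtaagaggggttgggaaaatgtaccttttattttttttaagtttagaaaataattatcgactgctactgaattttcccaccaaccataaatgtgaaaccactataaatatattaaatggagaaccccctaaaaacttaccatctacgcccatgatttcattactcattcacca
mRpS23-CenG1A: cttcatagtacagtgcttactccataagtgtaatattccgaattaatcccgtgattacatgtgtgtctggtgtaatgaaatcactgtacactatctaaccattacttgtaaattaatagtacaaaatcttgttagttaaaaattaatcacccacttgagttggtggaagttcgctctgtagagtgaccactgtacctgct
Ripalpha-RpL7: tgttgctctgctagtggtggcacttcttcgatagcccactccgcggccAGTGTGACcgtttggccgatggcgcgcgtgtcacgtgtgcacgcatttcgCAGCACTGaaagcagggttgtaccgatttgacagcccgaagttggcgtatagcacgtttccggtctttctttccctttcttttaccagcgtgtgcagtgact
RpS27-Nup37: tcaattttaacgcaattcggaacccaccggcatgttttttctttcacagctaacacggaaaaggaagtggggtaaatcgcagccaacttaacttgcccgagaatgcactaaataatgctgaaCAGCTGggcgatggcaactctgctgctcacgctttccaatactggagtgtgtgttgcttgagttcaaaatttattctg
Mnat9-CG1792: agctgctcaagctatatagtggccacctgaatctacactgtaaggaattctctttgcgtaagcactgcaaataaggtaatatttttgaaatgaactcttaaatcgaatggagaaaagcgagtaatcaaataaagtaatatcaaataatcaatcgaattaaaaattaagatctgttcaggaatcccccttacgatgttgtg
D19B-CG43293: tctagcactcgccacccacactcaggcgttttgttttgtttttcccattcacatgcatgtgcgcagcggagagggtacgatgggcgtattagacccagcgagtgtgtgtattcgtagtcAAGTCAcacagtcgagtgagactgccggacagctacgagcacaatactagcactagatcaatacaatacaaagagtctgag
RpL28-eIF1: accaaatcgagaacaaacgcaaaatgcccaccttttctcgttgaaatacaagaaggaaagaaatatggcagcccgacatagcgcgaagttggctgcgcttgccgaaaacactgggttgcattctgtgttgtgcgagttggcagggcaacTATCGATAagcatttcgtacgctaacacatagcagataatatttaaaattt
Pop4-nmo: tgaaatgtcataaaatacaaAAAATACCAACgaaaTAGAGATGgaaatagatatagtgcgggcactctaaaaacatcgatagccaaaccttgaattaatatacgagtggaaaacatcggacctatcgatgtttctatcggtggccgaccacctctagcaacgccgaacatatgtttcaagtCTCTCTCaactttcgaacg

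The strongest divergent promoter peak lay between Tcs5, which encodes a kinase of the tRNA threonylcarbamoyl complex, and CHMP2B, a subunit of the membrane-remodelling ESCRT-III complex. Its summit was 102 bp upstream of the Tcs5 TSS and 122 bp upstream of the CHMP2B TSS. Its signal was 636 in the thresholded list, 322 in replicate 3 (rank 14 of 30000 regions) and 319 in replicate 4 (rank 19), so both replicates placed it among their strongest regions. The peak between mRpS23, a mitochondrial ribosomal protein, and CenG1A, a GTPase-activating protein, had a signal of 593 in the thresholded list, 270 in replicate 3 (rank 22) and 336 in replicate 4 (rank 17). It lay 108 bp upstream of CenG1A and 384 bp upstream of mRpS23. At Ripalpha and RpL7, where the TSSs are 30 bp apart, the signal was 587 in the thresholded list, 245 in replicate 3 (rank 26) and 335 in replicate 4 (rank 18). RpL7 encodes a protein of the large ribosomal subunit. At RpS27, a small-subunit ribosomal protein gene, and Nup37, a nuclear pore gene, the signal was 480 in the thresholded list, 223 in replicate 3 (rank 34) and 258 in replicate 4 (rank 31). The peak of Ciao1, an iron-sulfur protein assembly factor, and HPS1 had a signal of 504 and lay 9 bp upstream of HPS1. It had 194 in replicate 3 (rank 43) and 314 in replicate 4 (rank 21). These 5 thus stood among the 50 strongest regions of either replicate.

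Of the 20 strongest peaks 7 had a gene of the cytosolic ribosomal protein, mitochondrial ribosomal protein or translation factor lists, 35% (15.4 to 59.2), against 65 of the other 818, 7.95% (6.19 to 10.02), a count made after seeing the data and not tested. Besides those above, this set held Mnat9-CG1792 (signal 437), D19B-CG43293 (413), CG8372-CG8360 (397), RpL32-CG7943 (372), Art3-mRpS10 (369), Chro-Ssl1 (368), CG11180-FAM21 (365), Pex11ab-CG8320 (362), Trmt6-Ent2 (359), CG3437-CG3552 (350), RpL41-NaCP60E (346), CG8187-Vha36-1 (342), RpL28-eIF1 (336), Rack1-mts (335) and Atat-Shc (316). Chro encodes the chromodomain protein Chromator of interbands, Ssl1 a subunit of the general factor TFIIH, Vha36-1 a subunit of the vacuolar proton pump, Rack1 a scaffold on the ribosome and mts the catalytic subunit of phosphatase 2A. All 20 were among the 4797 strongest regions of both replicates, with ranks of at most 110 in replicate 3 and 281 in replicate 4. The last of them, Atat-Shc, ranked 50 in replicate 3 and 281 in replicate 4, the widest disagreement of the set.

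**Figure D1:**
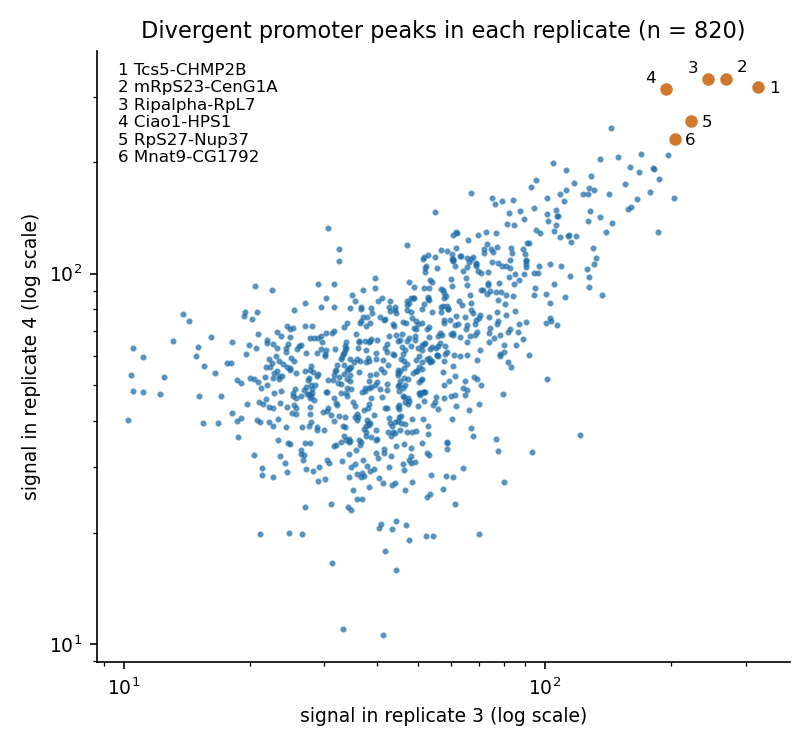
Signal of the 820 divergent promoter peaks found in both replicates' relaxed lists, replicate 3 on the x axis and replicate 4 on the y axis, both log scales of the authors' per-region score. Orange points are the 6 strongest, named in the panel, which lie at the upper right in both replicates, and the cloud widens below a signal of about 100.

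Most of the 838 were found in both replicates, but with ranks that often differed, as the plot of the signals by replicate shows. The relaxed list of replicate 3 lacked 14 of them and that of replicate 4 lacked 4. The peaks overlapped one of the 4797 strongest regions of replicate 3 in 82.1% of cases (79.3 to 84.6) and of replicate 4 in 82.0% (79.2 to 84.5), against 78.1% and 82.6% at one-sided promoters. Both replicates had such a region at 563 divergent promoter peaks, 67.2% (63.9 to 70.4), against 63.6% (61.5 to 65.7) at one-sided promoters, so the intervals of these shares overlapped. Signals in replicate 3 had a lowest value of 10.3, a median of 45.5 and a highest of 322, and those in replicate 4 a lowest of 10.6, a median of 60.2 and a highest of 336. Spearman's rho between the replicates was 0.56 across the 820 peaks found in both lists, against 0.36 across 2014 peaks at one-sided promoters, a description across peaks that share their libraries. The ranks of 74 peaks were over 5 times apart, among them eIF3h-senju (107 in replicate 3 and 906 in replicate 4). Summits of the replicates differed by a median of 21 bp and by at most 50 bp at 81.1% of the 820 peaks. The thresholded list was made from both replicates, so this recovery is a description of the list.

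Divergent promoter peaks were somewhat stronger at the median than one-sided promoter peaks and peaks away from TSSs. Their median signal was 102 (95% interval 98.1 to 104, quartiles 78.7 and 145), against 95.3 (93.4 to 97.0) at one-sided promoters and 89.0 (86.8 to 91.1) away from TSSs. Peaks at noncoding promoters had 93.0 (85.6 to 104), an interval that overlaps. In 5 groups of equal size, ordered from high to low signal, they made up 23.9%, 17.1%, 17.4%, 15.7% and 13.2% of the peaks. They took 129 of the 500 strongest peaks, 25.8% (22.0 to 29.9), but 2 of the 20 strongest. Peaks narrower than the full width of 256 bp, whose median signal was 236 against 94.7 for those of full width at divergent promoters, made up 11.9% of them (9.82 to 14.3), against 6.51% (5.48 to 7.66) at one-sided promoters, 8.95% (5.30 to 13.9) at noncoding promoters and 10.1% (8.72 to 11.6) away from TSSs. None of these differences was tested, because peaks of 1 list are not replicates.

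The pairs were almost all head to head, as divergent pairs are throughout the genome. In 817 of 838 cases, 97.5% (96.2 to 98.4), the minus-strand TSS lay before the plus-strand TSS, so that both genes point outwards. This held for 98.1% of the 2720 divergent coding pairs of the genome. For those pairs a head-to-head combination of TSSs was preferred, whereas each peak used the TSSs nearest to its summit, so the shares are not fully alike. At the 817 peaks the TSSs were 278 bp apart at the median (quartiles 134 and 388, range 11 to 880). In the other 21 the 5' ends overlapped by 26 to 643 bp, and the strongest of these was CG4741-Adck1 with a signal of 283, ranked 183 in replicate 3 and 73 in replicate 4. Among the narrowest were CG9921-Dsp1 (12 bp) and CG10669-CG11902 (14 bp). The widest were Dhc1-Nepl12 (880 bp), Atg16-Prtl99C (849 bp) and CG2182-Wdr33 (723 bp), all with summits over 250 bp from either TSS and signals of at most 103. Dhc1-Nepl12 had no region in the relaxed list of replicate 4, and CG2182-Wdr33 ranked 1286 in replicate 3 and 12056 in replicate 4. The signal did not follow the distance between the TSSs, with a Spearman's rho of 0.00 across the 817 peaks, which share their libraries.

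**Figure D2:**
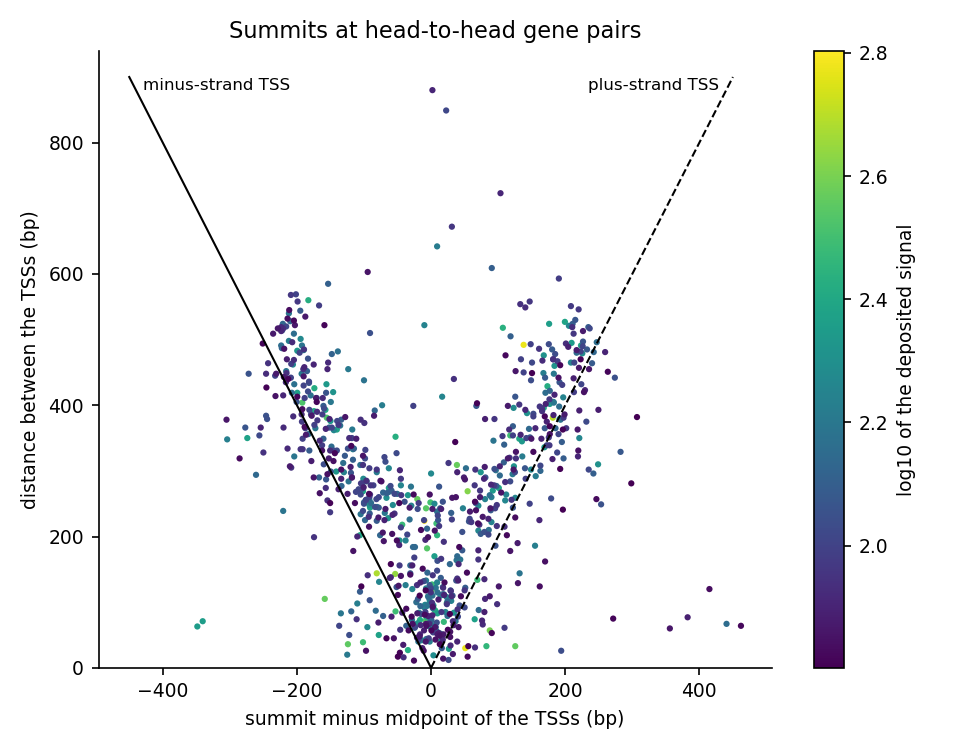
Position of each summit relative to the midpoint between the TSSs (x axis, bp) by the distance between the TSSs (y axis, bp) at the 817 head-to-head peaks. The solid line is the minus-strand TSS, the dashed line the plus-strand TSS, and colour is log10 of the deposited signal; summits form a single cloud below about 200 bp and run along either line above it.

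Summits kept close to 1 of the TSSs and rarely sat midway in wide pairs. The nearer TSS was within 100 bp of the summit at 749 peaks, 89.4% (87.1 to 91.4), and within 50 bp at 538, 64.2%, whereas at one-sided promoters the nearest TSS was within 100 bp at 69.9% (67.9 to 71.9) and within 50 bp at 47.6%. With TSSs of several genes in reach, a small distance to the nearest is easier to meet, and that part was not tested. The summit lay between the TSSs at 636 of 838 peaks, 75.9% (72.9 to 78.8). As the plot of summit positions shows, summits split into arms as the TSSs moved apart. Where the TSSs were 101 to 200 bp apart, 51.8% (42.1 to 61.4) of 110 summits fell in the middle of the interval, from 25 to 75% of the way. At 301 to 400 bp this was 9.84% (5.93 to 15.1) of 183 summits and at 401 to 1000 bp 9.29% (5.51 to 14.5) of 183. The median distance to the nearer TSS stayed between 25.5 and 46 bp in all 5 classes of distance, while that to the midpoint was 24.8 bp in the closest pairs and 193 bp in the widest. The plus-strand gene was the nearer one at 409 peaks, 48.8% (45.4 to 52.2), an interval that includes equal shares of both strands.

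In wide pairs a minority of farther promoters had another thresholded peak. Counting the strongest peak of each of 168 head-to-head pairs with TSSs over 400 bp apart, 38 (22.6%, 16.5 to 29.7) had another thresholded peak within 100 bp of the farther TSS, against 20.5% (18.6 to 22.4) of all 1772 TSSs in head-to-head pairs of that distance. A region of the pooled relaxed list, which holds background by design, lay there in 98 of 168 pairs (58.3%, 50.5 to 65.9), against 43.8% (41.5 to 46.2) of the 1772 TSSs. The 1772 include the nearer TSSs of the same pairs. They also include TSSs of 464 pairs 601 to 1000 bp apart, of which only 7 had a peak in reach of both TSSs. At 401 to 500 bp it was 103 of 267 pairs, so the 1772 come from wider pairs than the 168. At 156 of 183 peaks of such pairs (85.2%) the summit itself lay within 100 bp of the nearer TSS. Whether farther TSSs differ from other promoters of wide pairs therefore cannot be told from these shares. Divergent promoter peaks occurred more than once at 45 pairs, and at 37 of these each gene had 1 within 100 bp of its own TSS. RpL28-eIF1 had a summit 35 bp from RpL28 with a signal of 336 and another 7 bp from eIF1, the start-codon selecting initiation factor, with 92.7. The stronger ranked 88 in replicate 3 and 104 in replicate 4, and the weaker 1329 in replicate 3 and 8758 in replicate 4, so the larger signal on the ribosomal protein side was found in both. Rack1-mts had signals of 335 at Rack1 and 108 at mts, with ranks of 110 and 1836 in replicate 3 and 60 and 2979 in replicate 4. yem-Ctl2 had 246 at Ctl2, a choline transporter-like gene, and 154 at yem, with ranks of 154 and 380 in replicate 3 and 312 and 1441 in replicate 4.

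Most divergent pairs of the genome had no thresholded peak. Of 2720 pairs of coding genes on opposite strands with TSSs at most 1000 bp apart, 843 had a summit within 500 bp of both TSSs, 31.0% (29.3 to 32.8). A further 825 had only a region of the pooled relaxed list, and 1052 had none. Among head-to-head pairs the share was 37.4% at 0 to 50 bp, 47.2% at 51 to 100 bp, 34.3% at 101 to 200 bp, 38.4% at 201 to 300 bp, 41.0% at 301 to 400 bp and 38.6% at 401 to 500 bp. It was lower at 501 to 600 bp (21.2%) and at 601 to 1000 bp (1.51%), where the rule leaves only the middle of the interval as a place for a summit. By chromosome, 87 of 410 pairs on X had a peak, 21.2% (17.4 to 25.5), against 29.4 to 36.6% on the other large arms.

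**Figure D3:**
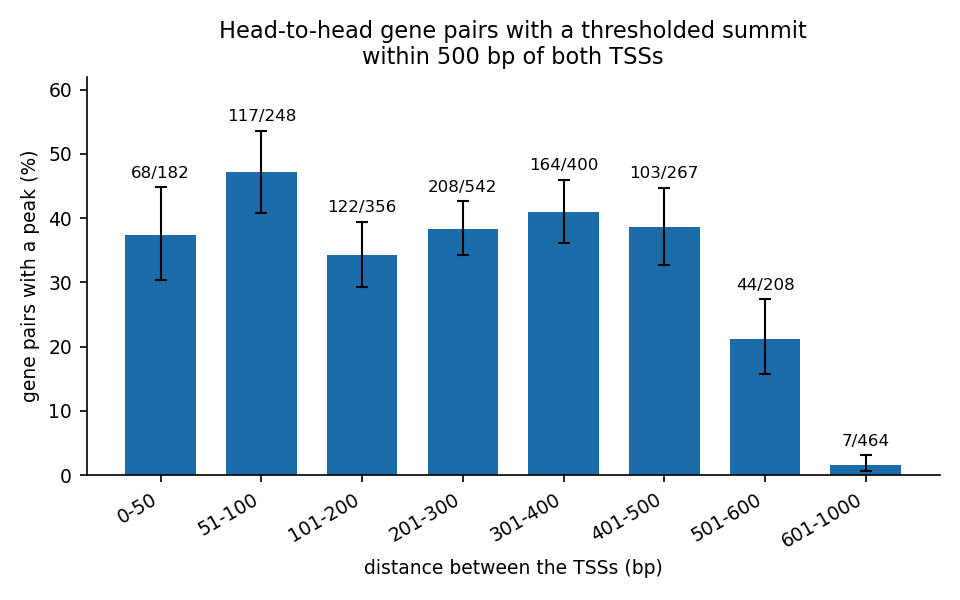
Share of head-to-head gene pairs with a thresholded summit within 500 bp of both TSSs (y axis, %) by the distance between the TSSs (x axis, bp). Bars carry 95% Clopper-Pearson intervals and the counts; the share lies between 34.3 and 47.2% up to 500 bp and falls to 1.51% at 601 to 1000 bp.

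Genes of divergent pairs carried peaks more often than other genes, and how much more depended on how a summit was assigned. A summit lay within 500 bp of a TSS for 1995 of 5141 genes in such pairs, 38.8% (37.5 to 40.2), against 1386 of 8804 coding genes in none, 15.7% (15.0 to 16.5), and 24.2% of all 13945 coding genes. A summit at a divergent promoter counts for both genes. When each summit counted only for the gene with the nearest TSS, the shares were 24.9% (23.7 to 26.1) in pairs and 15.7% (14.9 to 16.5) in none. Among genes with 1 annotated TSS, where a summit again counted for both genes, they were 33.5% (31.9 to 35.1) of 3520 in pairs and 10.5% (9.76 to 11.2) of 6726 in none. Genes known only by a CG number made up 28.3% of the 1580 genes of divergent promoter peaks, against 43.7% of all coding genes.

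Genes of the cytosolic ribosome had strong divergent promoter peaks. Of 86 cytosolic ribosomal protein genes 30, or 34.9% (24.9 to 45.9), belonged to a pair named by such a peak, against 11.3% of all coding genes, and 66 had a thresholded peak within 500 bp of a TSS, against the 24.2% above. Their 32 divergent promoter peaks had a median signal of 180. RpL32 shared its peak with CG7943 (signal 372, ranks 55 in replicate 3 and 70 in replicate 4) and RpL41 shared its peak with the sodium channel gene NaCP60E (346, ranks 83 in replicate 3 and 67 in replicate 4). Mitochondrial ribosomal protein genes had 27 of 75, or 36.0% (25.2 to 47.9), with a median signal of 89.3 over 28 peaks, which is below that of all divergent promoter peaks. After mRpS23 the strongest of these were mRpS10 (signal 369, ranks 39 in replicate 3 and 142 in replicate 4), mRpL47 (299, ranks 224 in replicate 3 and 64 in replicate 4) and mRpL23 (236, ranks 250 in replicate 3 and 228 in replicate 4). The summit was nearer to the partner for RpL32 (193 bp, against 116 bp from CG7943), mRpS23, mRpS10 and mRpL47. For RpL41 and mRpL23 it was nearer to the ribosomal protein gene. In a divergent pair of the genome lie 53 of the 86 cytosolic (61.6%) and 59 of the 75 mitochondrial genes (78.7%), against 5141 of 13945 coding genes. Of the cytosolic genes in no such pair 22 of 33 also had a thresholded peak, and of the mitochondrial ones 4 of 16, against 15.7% of coding genes in none. No list was tested, and the counts stand beside shares of coding genes only.

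Further lists of general cell function had between 17.2 and 37.5% of their genes in such pairs, and chaperones 9.38%, against the 11.3% above. Between 46.9 and 84.8% of the genes of these lists lie in a divergent pair of the genome at all, against 5141 of 13945 coding genes. Among the genes in such pairs the share with a thresholded peak was 30.2% for replication and repair, 31.8% for synthetases, 35.7% for splicing and 39.7% for Mediator and general transcription, against the 38.8% of all genes in pairs. It was 44.4 to 56.0% for the other lists of this kind, against 83.0% for cytosolic and 49.2% for mitochondrial ribosomal proteins. Proteasome subunits had 12 of 32, led by Rpn5, paired with the histone acetyltransferase gene Hat1 (signal 234), Rpt5 (217), Rpn6 (185) and Prosbeta1 (177). Oxidative phosphorylation subunits had 20 of 82, led by COX6B (181), ND-ASHI (177), COX5B (173) and COX8 (149). Vesicle traffic genes had 38 of 124, led by Vha36-1 (342), the translocon subunit Sec61alpha (310), the retromer subunit Vps29 (265) and the proton pump subunit Vha55 (254). Nuclear pore genes had 9 of 25, led by Nup37, Nup98-96 (154), Nup160 (145) and Sec13 (96.9). Translation factors had 10 of 58, led by eIF1, eIF3a (296), eIF3h (225) and eIF4EHP (212). Mediator and general transcription genes had 20 of 85, led by MED30 (243), TfIIB (207), MED6 (197) and TfIIA-L (188). Splicing genes had 9 of 33, led by SmD3 (172), Sf3a2 (120), snRNP-U1-C (106) and Sf3a1 (104). These signals belong to the shared peak, whose summit can lie nearer to the partner. For Rpn5 it lay 409 bp away and 10 bp from Hat1, and another peak 10 bp from Rpn5 had 68.3. The partner was also nearer for Rpn6, COX5B, Vha36-1, Sec61alpha, Nup37, Nup98-96, Sec13 and eIF1. It was likewise nearer for eIF3a, MED30, TfIIB, MED6, TfIIA-L and snRNP-U1-C, and farther for the other genes that led these lists.

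Genes of genome maintenance and protein quality control made up the remaining lists of this kind. DNA replication and repair genes had 11 of 62, led by dup (205), Rad60 (133), dpa (124) and Mcm2 (123). Autophagy genes had 7 of 22, led by Atg18a (169), Atg2 (107), Atg16 (103) and Atg9 (92.0). Aminoacyl-tRNA synthetase genes had 7 of 32, led by AsnRS (155), AspRS (101), IleRS (98.6) and LeuRS-m (92.4). Chaperone genes had 3 of 32, Hsp83 (130), DnaJ-H (92.3) and CCT1 (84.8). The summit was nearer to the partner for dup, Atg2, Atg16, Hsp83 and DnaJ-H, and nearer to the named gene for the others. Pairs with both genes in 1 list were RPA1-Mcm2, replication factors with a peak at each TSS, and Taf10b-Taf10, duplicate TFIID subunit genes with TSSs 45 bp apart. Taf10b-Taf10 had a signal of 64.3, near the foot of the list, and no region in the relaxed list of replicate 4. The weaker RPA1-Mcm2 peak, at RPA1, ranked 14825 in replicate 3 and 1375 in replicate 4.

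Genes for promoter and insulator proteins were few, and their share overlapped those of the lists above. Of 16 insulator and promoter factor genes 6 belonged to such pairs, 37.5% (15.2 to 64.6). A thresholded peak lay within 500 bp of a TSS at 11 of the 16 (68.8%), against 24.2% of all coding genes. Among the 10 of them in divergent pairs of the genome 8 had such a peak, against 38.8% of all genes in pairs. Dref, the DRE-binding factor, shared a peak with RpL13 (signal 206, ranks 829 in replicate 3 and 324 in replicate 4), with the summit 8 bp from the RpL13 TSS and 76 bp from that of Dref. Chro had 368, Cp190 had 115 and M1BP had 102. Histone and tissue-specific genes had few such peaks, beside 11.3% of all coding genes, a share that the interval of the 11 glue protein genes includes. Histone genes had 2 of 116, His2Av (94.4) and His4r (77.1), although 88 of them lie in divergent pairs; most of these are repeated near-identical copies, at which reads may not place uniquely, so their count is uncertain. The His2Av summit lay 244 bp from His2Av and 60 bp from its partner. Cuticle protein genes had 2 of 122, Lcp9 (78.6) and Cpr73D (73.2), and both summits lay nearer to the partner. Chemosensory receptor genes had 1 of 179, Ir60e (167), with the summit 25 bp from its neighbour CG13585 and 297 bp from Ir60e. Glue protein genes had 0 of 11 and cytochrome P450 genes 0 of 82, with 95% Clopper-Pearson upper bounds of 28.5% and 4.40%. Of these lists only 14 cuticle, 27 chemosensory and 13 P450 genes lie in a divergent pair at all. Among glue protein genes 6 of 11 lie in such a pair, and 2 of these had a thresholded peak. A thresholded peak lay within 500 bp of a TSS at 3 of the 11 glue protein genes (27.3%), against 24.2% of all coding genes.

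Nuclear receptor genes had 2 of 21, 9.52% (1.17 to 30.4), against the 11.3% of all coding genes, and 11 of 21 (52.4%) had a thresholded peak within 500 bp of a TSS, against 24.2%. Hr96, a receptor of the xenobiotic and lipid response, shared a peak with EMC6 (signal 297, ranks 141 in replicate 3 and 137 in replicate 4). ERR, the estrogen-related receptor, shared 1 with Atg18a (169, ranks 547 in replicate 3 and 997 in replicate 4). Both summits were nearer to the partner, at 66 bp from EMC6 against 152 bp from Hr96, and at 62 bp from Atg18a against 248 bp from ERR. No divergent promoter peak lay next to Hr83 itself: the 3 thresholded peaks within 5 kb of that gene were at one-sided promoters, nearest to Pak.

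Motif 7, the DRE, the BEAF core, Motif 6 and the E-box were found at a larger share of these summits than of those at one-sided promoters. In 200 bp windows, searched on both strands, Motif 7 (CAGCNCTA or CAGCNCTG, or with T at the third base CATCNCTA or CATCNCTG) was found at 335 of 838 divergent promoter peaks, 40.0% (36.6 to 43.4). This compares with 20.9% (19.2 to 22.8) at one-sided promoter peaks, 7.19% away from TSSs and 15.2% at the outermost TSS of all 13945 coding genes. The DRE (TATCGATA, the same on both strands) was found at 15.6% (13.2 to 18.3), against 8.11% (6.97 to 9.38) at one-sided promoters and 7.84% at all coding genes. CGATA, the BEAF core, which every DRE contains on both strands, was the most frequent of these elements and was found at 57.9% (54.5 to 61.2), against 41.0% (38.8 to 43.1) at one-sided promoters and 39.3% at all coding genes. Motif 6, a longer degenerate element, was found at 4.18% (2.93 to 5.76) against 1.65% (1.15 to 2.30) at one-sided promoters and 2.99% at all coding genes, and the E-box CAGCTG at 22.1% (19.3 to 25.0) against 15.8% (14.2 to 17.4) and 13.7%. Motif 1 (GTCACACT) was found at 7.88% (6.14 to 9.91) against 5.25% (4.32 to 6.30) at one-sided promoters and 5.67% at all coding genes, with overlapping intervals. At least 1 of DRE, Motif 1, Motif 6, Motif 7 and E-box was found at 65.9% (62.5 to 69.1) of divergent promoter peaks, against 41.0% (38.8 to 43.1) of one-sided ones.

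**Figure D4:**
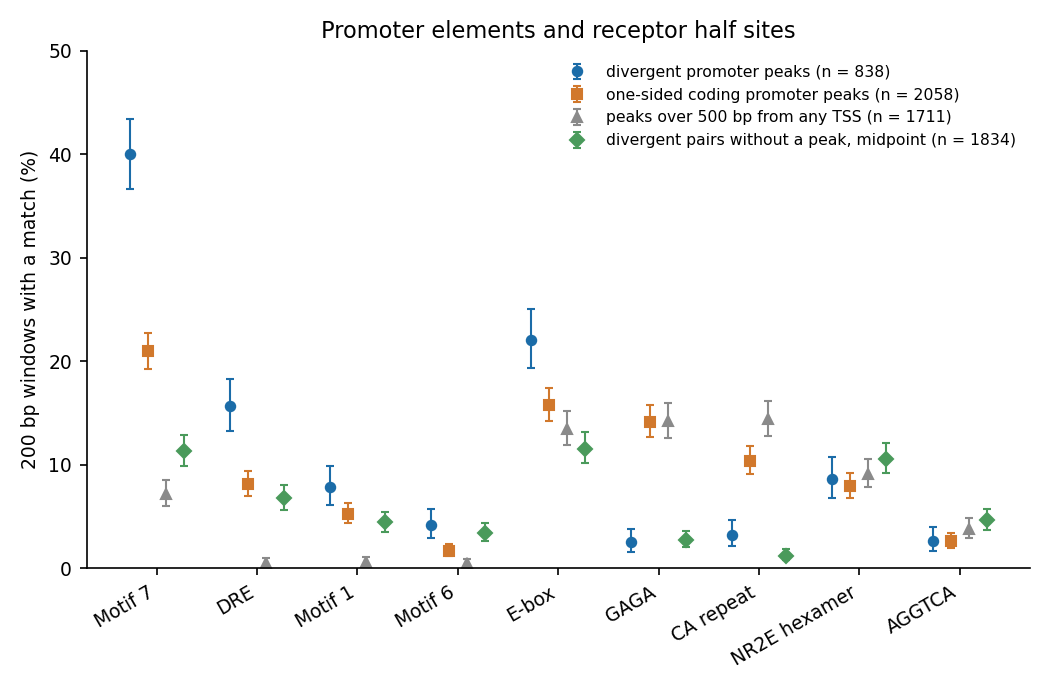
Share of 200 bp windows with a match on either strand (y axis, %) for 9 motifs, with 95% Clopper-Pearson intervals. Divergent promoter peaks (circles) lie above one-sided coding promoter peaks (squares) for Motif 7, DRE, Motif 6 and E-box and below them for GAGA and the CA repeat; triangles are peaks over 500 bp from any TSS and diamonds the midpoints of divergent pairs without a peak.

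GAGA elements were rare at divergent promoter peaks. GAGAGAG was found at 21 of 838, 2.51% (1.56 to 3.81), against 14.1% (12.7 to 15.7) at one-sided promoters, 14.2% (12.6 to 15.9) away from TSSs and 3.67% at all coding genes. The CA repeat CACACACA was found at 3.22% (2.13 to 4.65), against 10.4% (9.11 to 11.8) at one-sided promoters and 2.84% at all coding genes. The initiator (TCAGTC or TCAGTT) was found at 18.5% (15.9 to 21.3) against 26.9% (25.0 to 28.9) at one-sided promoters, and the TATA box TATAAA at 25.2% (22.3 to 28.3) against 17.1% (15.5 to 18.8). All coding genes had the initiator at 29.4% and the TATA box at 29.0%. In windows of similar GC content the intervals overlapped for the TATA box, the initiator and the CA repeat, as given below.

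The receptor hexamers had overlapping intervals at divergent and one-sided promoter peaks, and AAGTCA was rarer at both than at all coding genes. The NR2E hexamer AAGTCA was found at 8.59% (6.78 to 10.7) of divergent promoter peaks, 7.92% (6.79 to 9.17) of one-sided ones and 11.3% (10.8 to 11.8) of all coding genes. At both TSSs of divergent pairs without a peak it was found at 11.4% (10.3 to 12.5). AGGTCA, shared by many nuclear receptors, was found at 2.63% (1.65 to 3.95) of divergent promoter peaks, 2.62% of one-sided ones and 3.27% of all coding genes. The scrambled hexamer ACATGA was found at 4.77% (3.43 to 6.44), 4.42% and 6.60% (6.19 to 7.02) of these, so it too had lower shares at peaks. Of the 20 strongest divergent promoter peaks 2 had an AAGTCA, Ciao1-HPS1 and D19B-CG43293, and 0 had an AGGTCA. No match means only that these letters are not in the window.

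Base composition differed along with the motifs. The windows had a GC content of 40.7% ± 6.28 (SD over 838 windows) at divergent promoter peaks and 45.4% ± 7.52 (SD over 2058 windows) at one-sided ones. Within windows of 38 to 46% GC, Motif 7 was found at 43.0% of 386 divergent and 24.6% of 731 one-sided promoter peaks, DRE at 19.7% and 10.8%, and GAGA at 2.07% and 9.17%. Motif 1 was found there at 7.25% of the divergent and 7.80% of the one-sided promoter peaks, the other order from that over all windows. Among summits within 100 bp of the nearest TSS, Motif 7 was found at 41.9% of 749 divergent and 24.8% of 1439 one-sided promoter peaks, DRE at 17.0% and 11.0%, and GAGA at 2.14% and 11.3%. For these summits the TATA box shares were 24.8% and 17.3%, the CA repeat 3.20% and 7.64%, and the initiator 18.6% and 30.6%. The intervals of these shares did not overlap, unlike those within 38 to 46% GC. These restrictions were chosen after seeing the data.

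Divergent pairs without a peak had fewer of some elements but not of all. In windows at both TSSs of these pairs, Motif 7 was found at 17.5% (16.2 to 18.8) of 3427 and DRE at 11.8% (10.7 to 12.9), against the 40.0% and 15.6% at divergent promoter peaks. Motif 1 was found there at 9.72% (8.75 to 10.8), against 7.88% (6.14 to 9.91) at the peaks, Motif 6 at 4.93%, against 4.18%, and GAGA at 3.53%, against 2.51%. Windows at the midpoint of 1834 such pairs held Motif 7 at 11.3% and DRE at 6.76%, but their GC content averaged 33.9%, against 39.8% at the TSSs.

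Motif 7 and DRE matches were concentrated at the summit. Of the Motif 7 matches within 250 bp of a divergent promoter summit, 280 of 592 lay within 50 bp, 47.3% (43.2 to 51.4), against 47.3% at one-sided promoters. For DRE it was 49.0% (41.9 to 56.1) of 202 against 54.0%, and for GAGA 9.21% (3.78 to 18.1) of 76 against 27.5% (25.1 to 29.9) of 1369 at one-sided promoters. Within 100 bp of the summit, 327 of 412 Motif 7 matches read on the strand of the nearer gene, 79.4% (75.1 to 83.2), with a median position 11.5 bp upstream of its TSS. Motif 1 matches did so in 51 of 68 cases, 75% (63.0 to 84.7), at a median of 8.5 bp upstream. Summits and elements both lie near the TSS, and whether the matches follow the summit or the TSS was not tested.

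**Figure D5:**
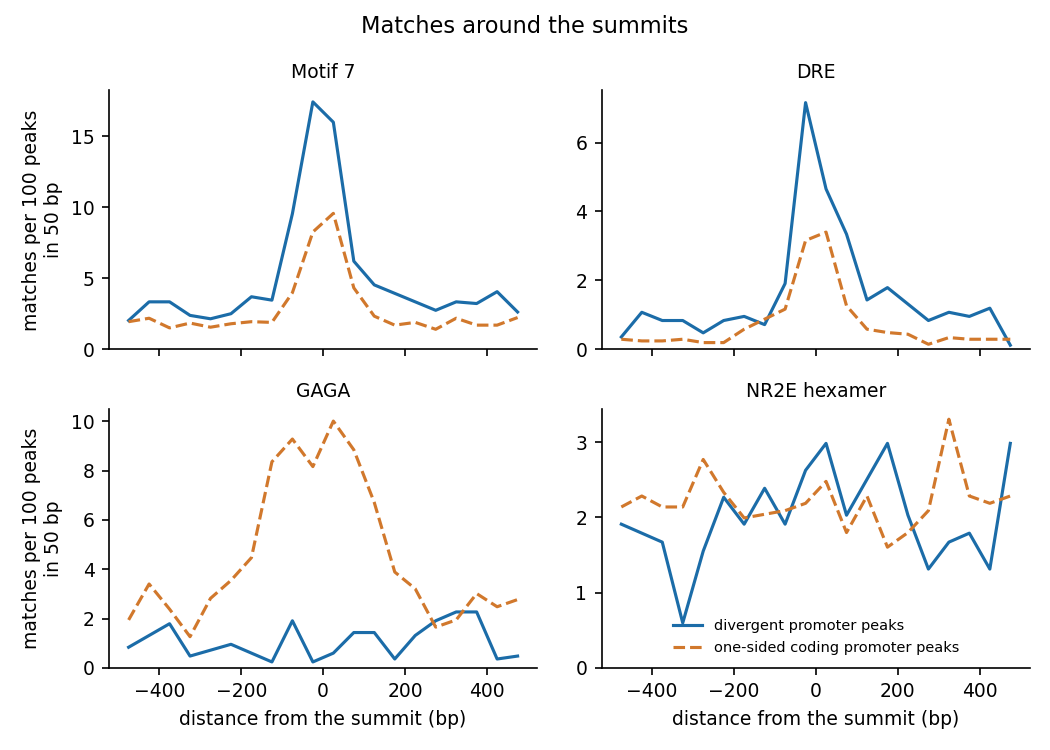
Matches per 100 peaks in 50 bp steps (y axis) by distance from the summit (x axis, bp, plus strand to the right) for Motif 7, DRE, GAGA and the hexamer AAGTCA. Divergent promoter peaks (solid) have central maxima for Motif 7 and DRE and none for GAGA, where one-sided promoter peaks (dashed) have a broad maximum.

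Strong and weak divergent promoter peaks had overlapping shares of most elements, while peaks with a Motif 1 were weaker at the median. Of the 20 strongest, 14 had at least 1 of DRE, Motif 1, Motif 6, Motif 7 and E-box, 70% (45.7 to 88.1), against 65.8% (62.4 to 69.0) of the other 818, and 8 had a Motif 7, among them Chro-Ssl1 and Trmt6-Ent2. Peaks with a Motif 7 had a median signal of 103 (99.6 to 111) and those without 98.7 (93.8 to 104). With a DRE it was 97.8 (90.7 to 108), without 102 (98.2 to 106). With a Motif 1 it was 90.1 (83.2 to 98.3), against 102 (99.6 to 106) without, although the third strongest peak, Ripalpha-RpL7, has 1. Among the 2398 strongest peaks of the whole list Motif 7 was found at 42.6% (38.1 to 47.1) of divergent promoter peaks and among the rest at 36.6% (31.6 to 41.8), and Motif 1 at 6.08% (4.11 to 8.61) and 10.2% (7.32 to 13.9).

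At the edge of the rule, 25 divergent promoter peaks had their farther TSS at 481 to 500 bp, with signals from 63.7 to 154 and a median of 91.8. Just outside, 20 peaks had it at 501 to 520 bp, with signals from 65.6 to 171 and a median of 86.2.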

How the data were processed

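ChIP-seq region lists of Hr83-GFP larvae, biological replicates 3 and 4, were used on dm6. Relaxed lists of 30000 regions were called, per the notes deposited with the samples, against a control alignment for each replicate and for both pooled, and the thresholded list came from comparing them by irreproducible discovery rate. What aligned the reads and called the regions is not given in the sources used here. Signal is the authors' score per region, without normalization across lists. Their deposited −log10 q-value stops at 3.86, a value of 74.9% of thresholded peaks, and signal therefore set the ranks.

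The summit was the start plus the authors' deposited offset. TSSs came from Ensembl release 115 (BDGP6), without transposable elements, and sequences from the RefSeq copy of the same assembly; every region lay within its chromosome. For each strand the nearest coding TSS named the gene. A replicate alone was represented by its 4797 strongest regions. Regions overlapped when they shared at least 1 bp. Shares have 95% Clopper-Pearson intervals, and medians have order-statistic intervals. Motifs and 20 gene lists, made by symbol patterns, were searched without a test, since 1 group with 2 replicates and no counts allows none across samples.

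The peaks, lists and motifs were chosen with earlier results of these data known. The text names both genes of the 20 strongest peaks, up to 4 genes per list with the strongest peak, pairs within a list, the narrowest and widest pairs, of which 1 is not reported here, and the strongest pairs with several peaks. CG4741-Adck1 and the emphasis on Motif 7 were singled out after their values were seen. Scripts ran in Python 3.11.15 with numpy 2.4.6, pandas 2.3.3, scipy 1.17.1 and matplotlib 3.10.9 and were tested on simulated data.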

Additional observations from a re-analysis of the deposited data

How the results depend on the processing

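Of 78 recomputed values, 47 stayed within the interval of the value reported (counts within 1.5 times). Within 38 to 46% GC the order of Motif 1 between divergent and one-sided promoter peaks turned, 7.25% against 7.80%. With a TSS window of 250 bp there were 432 divergent promoter peaks, 9.01% of the list, 79.4% of summits lay between the TSSs and 17.1% of pairs had a peak. With 1000 bp the peaks made up 25.0%, summits between the TSSs 70.6%, pairs with a peak 41.0% and Motif 7 35.6%. The 2398 strongest peaks held 477 divergent promoter peaks, 19.9% of them, with 80.5% between the TSSs, 18.2% of pairs, a median signal of 136, Motif 1 at 6.08%, and 97.3% and 95.8% found among the strongest regions of replicates 3 and 4. With 1 TSS per gene the peaks made up 16.0%, 94.7% were head to head, and 68.0% had the summit between the TSSs. Leaving out a replicate gave 773 to 827 divergent promoter peaks, 16.1 to 17.2% of the regions, and 28.9 to 31.1% of pairs with a peak. In the same lists 97.7% were head to head, 73.7 to 74.8% had the summit between the TSSs, and DRE was found at 15.1 to 15.2%, Motif 1 at 7.26 to 9.06%, GAGA at 1.81 to 2.46% and Motif 7 at 39.2 to 39.6%; signal medians on these lists are on another scale and were not compared. In 100 bp windows DRE was found at 10.5%, Motif 1 at 4.77%, GAGA at 0.716% and Motif 7 at 29.0%. In 400 bp windows DRE was at 19.8%, GAGA at 4.42% and Motif 7 at 47.3%. Within 38 to 46% GC, DRE was at 19.7%. With an overlap of 50% or more of each region required, 73.6% were found in replicate 3 and 74.3% in replicate 4. The Motif 7 alternatives, the GC and TSS distance restrictions, the windows at both TSSs, the genes with 1 TSS and the assignment to the nearest gene were chosen after seeing the data. No paired analysis was possible because the series has 1 group. Depth is unknown, and 2 replicates of 1 transgenic line in whole larvae limit every statement to these libraries; the causes of the changes above were not tested.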

Other observations

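Of the 2720 divergent pairs, 564 had no thresholded peak but had a region within 500 bp of both TSSs in the relaxed lists of replicate 3 and of replicate 4. Of pairs with TSSs 51 to 100 bp apart, 210 of 248 (84.7%) had a region of the pooled relaxed list, and 117 had a thresholded peak. These relaxed lists hold background regions by design, and how many of the regions are occupied was not tested.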
